A study of Homo sapiens with 6 samples.

Results

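Antisense noncoding RNAs that carry the name of a neighbouring gene followed by -AS1 were examined in libraries whose labels give MDA-MB-468, a basal-like human breast cancer line that lacks hormone receptors and HER2 amplification. Of 1059 rows of the count table with such a name, 579 had at least 1 count. A row was taken where its mean reached 2 CPM (counts per 1000000, the count divided by the column total) in the 3 libraries of either group. That held for 196 rows, and 5 of them on chromosomes X or Y were left out, so 191 of the 56505 rows of the table are described. The members were chosen by their own level in both groups, so those levels and the fold changes are given as a description with no test. The levels of the genes named before -AS1, called partners here, were not used by the rule, and these genes were tested. Partners enter only through members chosen by level, so counts over the partners as a set are not independent of that choice.

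The shCK5 group comprised 3 RNA-seq libraries from cells with a short hairpin RNA against cytokeratin 5 (KRT5), labelled shCK5-22. The shControl group comprised 3 libraries from cells with a control hairpin. All cells were grown in medium with serum and with no added treatment, and 1 knockdown hairpin was used. The labels do not say that replicates were separate cultures, so p-values rest on differences among 3 libraries a group, which may be technical only.

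An antisense RNA is transcribed from the strand opposite to a gene. Many of them start beside the promoter of that gene and run away from it, head to head, while others start beyond its end and run into it, tail to tail. Some antisense RNAs are known to act on the chromatin or the transcript of the neighbouring gene, some act on other genes, and for most no function is known. In cancer cells, antisense RNAs of genes of the epithelial-mesenchymal transition, such as those beside VIM and ZEB1, have been studied together with that gene.

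Total counts lay between 75460940 and 83594772 in shCK5 libraries and between 68810882 and 75529699 in shControl libraries. From here on, levels are CPM scaled by the trimmed mean of M-values (TMM). KRT5 had 16.42 ± 0.845 CPM in shCK5 and 2044.3 ± 23.3 CPM in shControl (SD, n = 3 each). MDA-MB-468 lacks RB1 and SMAD4. In the libraries labelled shCK5, however, RB1 averaged 101 CPM, against 1.996 CPM in shControl, and SMAD4 averaged 16.86 CPM, against 0.235 CPM in shControl. The epithelial markers EPCAM and CDH1 had means of 26.61 and 3.892 CPM in shCK5, against 316.2 and 120.1 CPM in shControl. The groups may therefore hold different cells, and such a difference cannot be told apart from an effect of the hairpin in any result given here. Summed levels of 6 fibroblast markers were 12.1 to 14.1 CPM in shCK5 and 13.3 to 13.9 CPM in shControl, and those of 6 endothelial markers were 6.36 to 7.19 CPM in shCK5 and 4.51 to 6.45 CPM in shControl. Single markers moved in opposite directions within these sums: PDGFRB averaged 4.36 CPM in shCK5 and 0.476 CPM in shControl, COL1A1 8.702 CPM in shCK5 and 12.86 CPM in shControl, PECAM1 4.227 CPM in shCK5 and 2.207 CPM in shControl, and CDH5 0.0348 CPM in shCK5 and 1.296 CPM in shControl. The sum over 6 leukocyte markers was 0.622 to 0.813 CPM in shCK5 and 1.03 to 1.66 CPM in shControl. Their part in the results was not tested.

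How reads of overlapping genes had been counted was read from the table itself, because no source used here gives the strand setting. Gene positions were those of GENCODE v29 on GRCh38, and the authors may have used another release. Of 9572 autosomal protein-coding genes whose span, introns included, is shared with no other gene, 1315 (13.7%) were at 0 in all 6 libraries. Of 328 genes that lie wholly under a gene of the opposite strand, with no exon under an exon, 325 (99.1%) were at 0. All 84 genes that lie in this way under a gene of the same strand were at 0. Of 46 genes whose exons all lie under other gene spans but that keep at least 1000 intronic bases to themselves, 7 (15.2%) were at 0. Reads in stretches shared by 2 gene spans thus appear to have been left uncounted on either strand, and reads in introns to have been counted.

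**Figure D1:**
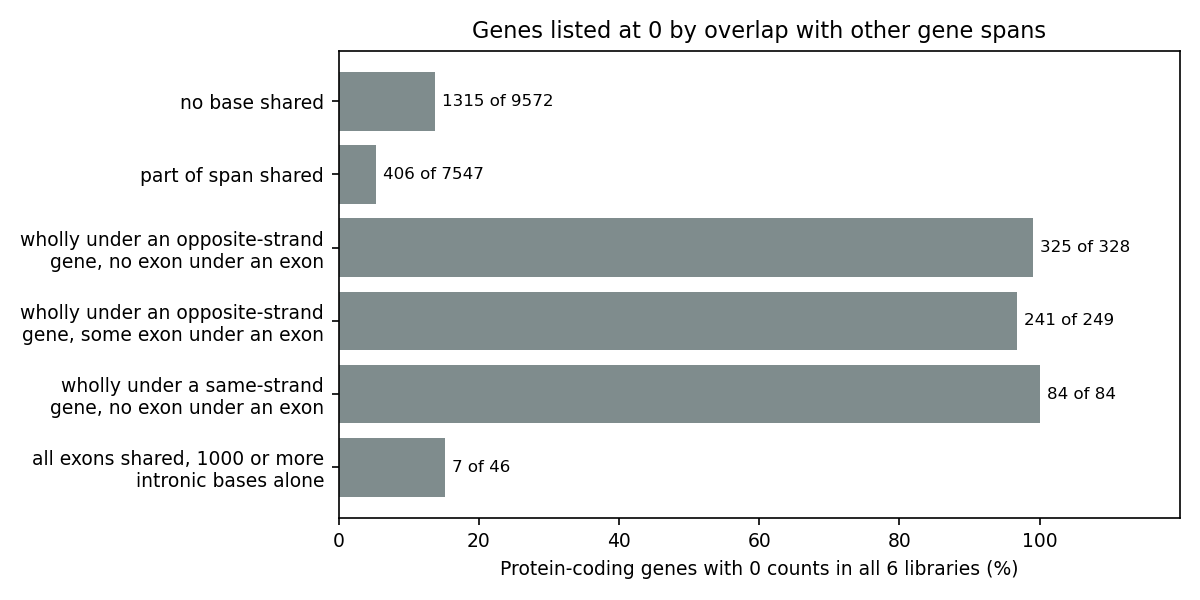
Percentage of autosomal protein-coding genes with 0 counts in all 6 libraries (bars, from 0), by how their span lies in GENCODE v29; the numbers beside the bars give genes at 0 of all genes in the class. Genes wholly under another gene were at 0 in 96.8% to 100% of cases on either strand, against 13.7% of genes that share no base.

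Each value below is therefore taken as the signal of the part of an antisense gene that no other gene covers, from exons and introns and from both strands. Among the 188 members placed in the annotation, this part had a median of 18478 bases, which was 90.57% of the span in the median, and a minimum of 754 bases. Of those placed, 171 matched by symbol and 17 by an older or newer symbol, whereas MAFG-AS1, RAET1E-AS1 and SPTY2D1-AS1 were given no position. The symbol of RAET1E-AS1 was ambiguous there, and MAFG-AS1 had a chromosome from RefSeq only. The annotation classes 125 of the placed members as antisense, 30 as lincRNA and 24 as processed transcript. It classes 2 as protein-coding, FAM83H-AS1 (there named IQANK1) and AATK-AS1 (there named PVALEF), so the name -AS1 does not make these rows noncoding. Transcript of the partner that runs into the unshared part, or starts within it, would then be counted with the member, and its share was not measured.

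The start regions of 5 members are shown first. They were chosen because a RefSeq start of the member lies within 200 bases of a partner start, while their levels differed between the groups in different ways. The windows are RefSeq promoters on GRCh38.p14, from 250 bases before to 50 bases after the start, 5′ to 3′ on the strand of the antisense RNA. Capitals mark the bases that also lie in the promoter window of the partner, which reads the other strand. In the first 3, member and partner were both higher in shCK5. In the other windows they differed. ZBED5-AS1 was far higher in shCK5 while ZBED5 did not pass the test. MNX1-AS1, chosen after its values were seen, was higher while MNX1 fell. The windows are HHIP-AS1 (chr4:144645970-144646269, minus strand, 236 shared bases), FOXD3-AS1 (chr1:63322409-63322708, minus strand, 208 shared bases), ZEB1-AS1 (chr10:31320398-31320697, minus strand, 206 shared bases), ZBED5-AS1 (chr11:10857967-10858266, plus strand, 263 shared bases) and MNX1-AS1 (chr7:157010607-157010906, plus strand, 293 shared bases).
HHIP-AS1: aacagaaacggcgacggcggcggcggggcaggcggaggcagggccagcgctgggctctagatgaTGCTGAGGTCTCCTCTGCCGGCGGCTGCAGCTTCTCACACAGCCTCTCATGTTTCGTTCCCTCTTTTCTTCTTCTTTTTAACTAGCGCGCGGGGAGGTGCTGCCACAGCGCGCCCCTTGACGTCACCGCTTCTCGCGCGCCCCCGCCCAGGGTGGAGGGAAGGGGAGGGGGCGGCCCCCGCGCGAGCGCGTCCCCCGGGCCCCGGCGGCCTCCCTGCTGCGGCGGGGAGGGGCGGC
FOXD3-AS1: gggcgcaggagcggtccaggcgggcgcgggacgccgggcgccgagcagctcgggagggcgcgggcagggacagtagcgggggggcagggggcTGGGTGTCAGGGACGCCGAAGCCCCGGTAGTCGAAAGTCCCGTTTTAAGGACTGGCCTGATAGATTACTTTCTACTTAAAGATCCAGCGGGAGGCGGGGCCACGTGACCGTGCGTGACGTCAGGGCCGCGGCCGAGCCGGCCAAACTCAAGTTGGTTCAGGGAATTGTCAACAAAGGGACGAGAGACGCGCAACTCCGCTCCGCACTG
ZEB1-AS1: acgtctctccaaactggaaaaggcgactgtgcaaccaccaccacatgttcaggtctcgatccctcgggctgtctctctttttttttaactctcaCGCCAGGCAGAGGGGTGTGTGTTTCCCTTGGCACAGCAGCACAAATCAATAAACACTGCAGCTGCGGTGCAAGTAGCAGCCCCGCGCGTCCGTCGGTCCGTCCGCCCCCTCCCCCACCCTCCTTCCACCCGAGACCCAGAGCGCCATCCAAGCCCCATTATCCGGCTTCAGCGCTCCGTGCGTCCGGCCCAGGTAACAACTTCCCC
ZBED5-AS1: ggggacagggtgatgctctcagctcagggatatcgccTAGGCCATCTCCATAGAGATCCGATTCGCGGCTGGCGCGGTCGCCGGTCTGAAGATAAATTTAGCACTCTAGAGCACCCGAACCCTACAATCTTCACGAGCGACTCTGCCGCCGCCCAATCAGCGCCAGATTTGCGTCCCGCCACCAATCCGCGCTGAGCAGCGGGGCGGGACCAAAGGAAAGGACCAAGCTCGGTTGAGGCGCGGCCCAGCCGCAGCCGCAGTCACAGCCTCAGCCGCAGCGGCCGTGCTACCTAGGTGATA
MNX1-AS1: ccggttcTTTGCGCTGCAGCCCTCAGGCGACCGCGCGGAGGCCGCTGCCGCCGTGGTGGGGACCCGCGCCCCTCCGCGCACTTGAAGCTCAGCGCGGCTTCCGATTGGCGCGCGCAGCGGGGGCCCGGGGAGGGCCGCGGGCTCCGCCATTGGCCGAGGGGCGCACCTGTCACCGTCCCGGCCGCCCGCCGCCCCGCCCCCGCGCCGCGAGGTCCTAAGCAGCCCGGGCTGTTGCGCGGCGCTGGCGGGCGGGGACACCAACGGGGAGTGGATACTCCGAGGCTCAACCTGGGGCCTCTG

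These windows are rich in G and C, with 71.67% in HHIP-AS1, 67% in FOXD3-AS1, 60% in ZEB1-AS1, 62.67% in ZBED5-AS1 and 77.67% in MNX1-AS1. The nearest diverging RefSeq starts of member and partner lie 137 bases apart at HHIP, 109 at FOXD3, 107 at ZEB1, 164 at ZBED5 and 194 at MNX1. By the gene bounds of GENCODE v29, the starts lie 15336 bases apart at HHIP and 1400 at FOXD3. RefSeq held a promoter for 130 members, in 162 windows. Their median G and C content was 64.7%, against 58.7% over all 34943 windows of the table, and the median number of CG dinucleotides was 26 against 14. TATAAA, the core promoter box, was found on either strand in 4.32% of the members' windows and in 11.6% of all windows. TGANTCA, a form of the AP-1 site, was found in 7.41% and 7.72%, and CAGGTG, the E-box that ZEB and SNAI factors bind, in 19.8% and 20.6%, each on both strands and with no overlap of these motifs considered. Of the 5 windows printed, only that of MNX1-AS1 holds one of these motifs, CAGGTG (on the printed strand as its reverse complement CACCTG). Among pairs whose RefSeq starts diverge, 47 of 62 start within 500 bases of each other, with a median distance of 191.5 bases.

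The 191 members were spread widely on both sides of equality. Of these, 109 reached 2 CPM in both groups, 25 did so in shCK5 alone and 57 in shControl alone. All 3 shCK5 values lay above all 3 shControl values in 65 members and below them in 97, and the groups overlapped in 29. Over all 19567 genes tested, the groups did not overlap in 84.2%, with 41.6% higher and 42.6% lower. The all-gene fit called 161 members (84.29%), 64 higher and 97 lower in shCK5, against 82.7% of all genes. Nothing is read from either count, because these levels chose the members.

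The median log2 fold change of shCK5 over shControl was -0.33 over the members, and -0.02 over all genes tested. It lay at 0.02 over the 109 members that reached the threshold in both groups. Of these 109, 40 were called higher and 42 lower, against 40.9% and 41.7% of all genes tested. Log2 fold changes ran between -5.51 and 4.60. More than 1 log2 unit separated the groups in 30 members higher and 56 members lower in shCK5, and more than 4 units in 3 higher and 8 lower. The rule had taken 57 members through shControl alone and 25 through shCK5 alone. Shares over all genes at these cut-offs are not given here, so nothing is read from these counts. Summed over all members, the level was 1600.1, 1608.1 and 1601.9 CPM in the shCK5 libraries, against 1844.7, 1830.1 and 1836.9 CPM in the shControl libraries. Without LRRC75A-AS1, the member with the most counts, the sums were 1459.7 to 1467.2 CPM in shCK5 and 1610.4 to 1628.8 CPM in shControl. The threshold falls between LMCD1-AS1 and PARD6G-AS1 just inside, at 2.02 and 2.00 CPM of the column total in shCK5, and CELSR3-AS1 and SRRM2-AS1 just outside, at 1.976 and 1.94 CPM.

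**Figure D2:**
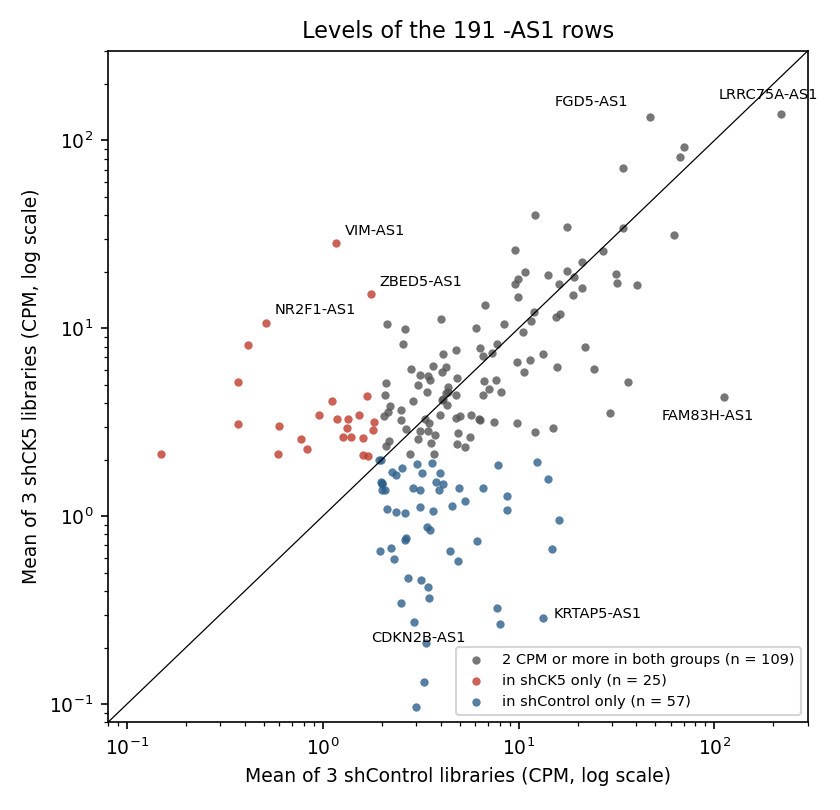
Mean level of each of the 191 members in shCK5 (vertical) against shControl (horizontal), in TMM-scaled CPM on log axes, with the line of equality. Red points reached 2 CPM in shCK5 alone (n = 25), blue points in shControl alone (n = 57) and grey points in both (n = 109); VIM-AS1 and FAM83H-AS1 lie far from the line on opposite sides.

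The member with the highest log2 fold change was VIM-AS1, beside a gene of mesenchymal cells. VIM-AS1 (ENSG00000229124.6, chromosome 10, 17214239 to 17229985, minus strand) had 28.83, 28.96 and 27.62 CPM in shCK5, against 1.074, 0.978 and 1.477 CPM in shControl. The groups lie far apart, with a log2 fold change of 4.60 (SE 0.0918). It starts within VIM, the gene of the intermediate filament vimentin of mesenchymal cells, and shares 1727 bases with it. VIM rose to 987.2 ± 12.96 CPM in shCK5, against 6.911 ± 0.480 CPM in shControl, a log2 fold change of 7.16 (SE 0.0400; adjusted p = 2.684e-34, from edgeR as for every partner). The partner thus changed by more log2 units than the antisense RNA.

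NR2F1-AS1 (ENSG00000237187.8, chromosome 5, 93409359 to 93585648, minus strand) had 10.69, 10.6 and 10.92 CPM in shCK5, against 0.349, 0.777 and 0.418 CPM in shControl. Its values were alike within shCK5 and uneven within shControl, and the log2 fold change was 4.36 (SE 0.151). NR2F1, which encodes the orphan nuclear receptor COUP-TF1, also rose, to 8.395 ± 0.409 CPM in shCK5, against 0.244 ± 0.0159 CPM in shControl (log2 fold change 5.10, adjusted p = 1.854e-20). FLG-AS1 (ENSG00000237975.6, chromosome 1, 152168125 to 152445456, plus strand) had 8.566, 7.829 and 7.991 CPM in shCK5, against 0.242, 0.451 and 0.557 CPM in shControl, a log2 fold change of 4.28 (SE 0.161). FLG, the gene of the epidermal protein filaggrin, lies wholly within its span and was at 0 in all libraries, like the other partners placed so.

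FOXD3-AS1 (ENSG00000230798.5, chromosome 1, 63320884 to 63324441, minus strand) had 1.99, 2.466 and 1.949 CPM in shCK5, against 0.188, 0.1504 and 0.112 CPM in shControl. The groups did not overlap (log2 fold change 3.81, SE 0.263). FOXD3, a forkhead factor of the neural crest, had 0.290, 0.262 and 0.263 CPM in shCK5 from 62 counts, against no count in shControl. It rose at least 20.49-fold, set against a floor of 3 counts over the shControl libraries (adjusted p = 8.277e-07). If both mates of each fragment were counted, this floor is too low, and this bound and the other bounds of this kind below are too high by up to 2-fold.

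HHIP-AS1 (ENSG00000248890.1, chromosome 4, 144642922 to 144661357, minus strand) had 6.021, 4.957 and 4.632 CPM in shCK5, against 0.295, 0.451 and 0.362 CPM in shControl, a log2 fold change of 3.80 (SE 0.177). Its partner HHIP encodes a membrane protein that binds Hedgehog ligands and limits their signalling. HHIP rose to 9.038 ± 0.482 CPM in shCK5, against 0.993 ± 0.0568 CPM in shControl (log2 fold change 3.19, adjusted p = 1.149e-18). The genes of this pair, whose start windows are shown above, were thus both higher in every shCK5 library.

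ZBED5-AS1 (ENSG00000247271.6, chromosome 11, 10858259 to 10906802, plus strand) had 14.68, 15.74 and 15.11 CPM in shCK5, against 1.745, 1.768 and 1.784 CPM in shControl, a log2 fold change of 3.10 (SE 0.0863). ZBED5, a gene derived from a transposase, had 42.48, 41.65 and 42.2 CPM in shCK5, against 40.04, 41.25 and 38.8 CPM in shControl. The log2 fold change of ZBED5 was 0.073 (SE 0.0383), which did not pass the test (adjusted p = 0.0827); without shControl replicate 2 it did, at 0.0958. The values of ZBED5 in the groups do not overlap, but lie close together.

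The other 4 of the 10 highest were P4HA2-AS1, SERTAD4-AS1, LOXL1-AS1 and ATP6V0E2-AS1. P4HA2-AS1 had 3.106 ± 0.346 CPM in shCK5 and 0.370 ± 0.158 CPM in shControl (log2 fold change 3.06). P4HA2, a prolyl hydroxylase of collagen, rose with a log2 fold change of 1.45 (adjusted p = 1.585e-21). LOXL1-AS1 had 10.55 ± 1.17 CPM in shCK5 and 2.126 ± 0.248 CPM in shControl (2.31). LOXL1, which cross-links elastin, also rose, with a log2 fold change of 1.53 (adjusted p = 4.199e-13). SERTAD4-AS1 had 3.02 ± 0.499 CPM in shCK5 and 0.600 ± 0.0411 CPM in shControl (2.33), and SERTAD4 rose by 0.83 (adjusted p = 7.414e-14). ATP6V0E2-AS1 had 9.973 ± 0.344 CPM in shCK5 and 2.618 ± 0.198 CPM in shControl (1.93), while ATP6V0E2, a subunit gene of the vacuolar proton pump, had 7 counts in shCK5 and 5 in shControl and was not tested.

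The member with the lowest log2 fold change was KRTAP5-AS1 (ENSG00000233930.3, chromosome 11, 1571353 to 1599184, plus strand), named after the family of hair keratin-associated proteins. It had 0.328, 0.393 and 0.138 CPM in shCK5, against 13.44, 13.03 and 13.43 CPM in shControl, a log2 fold change of -5.51 (SE 0.149). The name KRTAP5 stands for no single row, so it has no partner here.

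CDKN2B-AS1, also known as ANRIL (ENSG00000240498.7, chromosome 9, 21994778 to 22121097, plus strand), had 0.239, 0.289 and 0.277 CPM in shCK5, against 7.879, 7.472 and 8.821 CPM in shControl. The shCK5 values are near 0 in all 3 libraries, and the log2 fold change was -4.90 (SE 0.154). Its partner CDKN2B encodes the cyclin-dependent kinase inhibitor p15. CDKN2B lies wholly within the span of CDKN2B-AS1 and was at 0 in all libraries, so it gives no comparison.

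FAM83H-AS1 (ENSG00000203499.11, chromosome 8, 143734140 to 143790644, plus strand) had 3.804, 4.826 and 4.369 CPM in shCK5, against 110.4, 112.3 and 112.4 CPM in shControl. The groups lie far apart, and its log2 fold change was -4.69 (SE 0.0526). FAM83H, whose protein helps organise keratin filaments in epithelial cells, starts 339 bases away and shares no base with it. FAM83H fell to 24.85 ± 0.777 CPM in shCK5, against 344.6 ± 2.61 CPM in shControl (log2 fold change -3.79, adjusted p = 2.619e-31). Both genes of this pair were thus lower in shCK5 by over 3 log2 units.

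Of the 10 lowest members, 3 are named after zinc finger genes whose names begin with ZNF. ZNF793-AS1 (chromosome 19, 37497159 to 37507046, minus strand) had 0.101, 0.0787 and 0.111 CPM in shCK5, against 2.738, 3.285 and 2.912 CPM in shControl (log2 fold change -4.93, SE 0.249). ZNF793 fell to 1.42 ± 0.117 CPM in shCK5, against 26.34 ± 0.206 CPM in shControl (-4.21, adjusted p = 1.364e-24). ZNF667-AS1 (chromosome 19, 56477250 to 56500666, plus strand) had 0.957, 0.944 and 0.968 CPM in shCK5, against 14.52, 17.55 and 16.15 CPM in shControl (-4.07, SE 0.105). Its partner ZNF667 fell with a log2 fold change of -3.64 (adjusted p = 1.152e-22), so member and partner rows of both pairs were lower in shCK5. ZNF571-AS1 had 0.132 ± 0.0467 CPM in shCK5 and 3.302 ± 0.0425 CPM in shControl (-4.63), and ZNF571, whose whole span is shared with other genes, was at 0. Of all 9 members whose partner name begins with ZNF, 2 lay higher, 5 lower and 2 overlapped between the groups, a grouping made after the values were seen. Among their 8 tested partners, 2 rose and 6 fell. Over all genes tested, the groups did not overlap in 41.6% higher and 42.6% lower, and of all 159 partners 71 rose and 74 fell, so with 9 members nothing particular to these names is read from the counts.

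The other 4 of the 10 lowest were MIF-AS1, IGFL2-AS1, ZIM2-AS1 and TMEM51-AS1. MIF-AS1 had 0.325 ± 0.106 CPM in shCK5 and 7.736 ± 1.02 CPM in shControl (log2 fold change -4.57). MIF, the gene of the cytokine macrophage migration inhibitory factor, was listed at 0 in all libraries although 422 bases of its span are shared with no other gene in GENCODE v29. IGFL2-AS1 had 0.673 ± 0.0946 CPM in shCK5 and 14.79 ± 1.69 CPM in shControl (-4.45). IGFL2, of the insulin growth factor-like family, was at 0 although none of the 18194 bases of its span is shared with another gene in GENCODE v29. ZIM2-AS1 had 0.213 ± 0.0700 CPM in shCK5 and 3.352 ± 0.442 CPM in shControl (-3.95). The imprinted zinc finger gene ZIM2 had no count in shCK5 and 40 counts in shControl, at least 13.45-fold lower against the floor of 3 counts (adjusted p = 1.174e-05). TMEM51-AS1 had 0.276 ± 0.172 CPM in shCK5 and 2.916 ± 0.404 CPM in shControl (-3.38), and is taken up again below for the opposite sign of its partner.

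**Figure D3:**
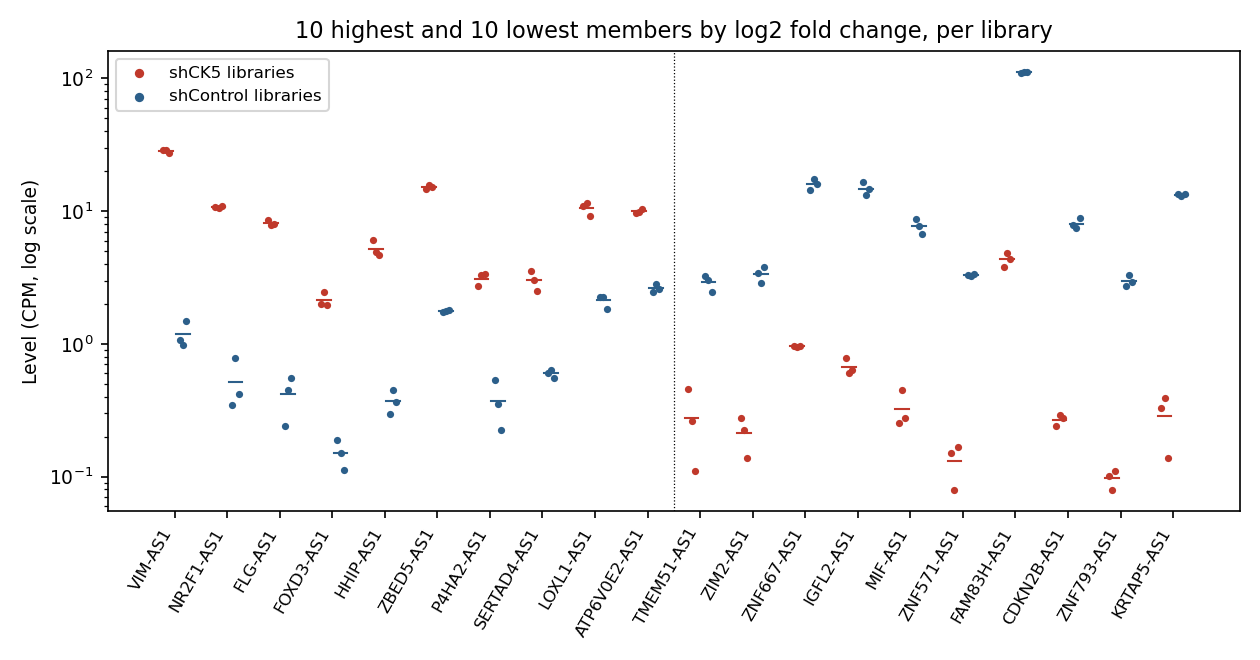
Level of the 10 members with the highest (left of the dotted line) and the 10 with the lowest (right) log2 fold change, in TMM-scaled CPM on a log axis; points are single libraries, shCK5 in red to the left and shControl in blue to the right, and dashes are means of 3. No member of the 20 has overlapping groups; FAM83H-AS1, for example, lies at 3.804 to 4.826 CPM in shCK5 and at 110.4 to 112.4 CPM in shControl.

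The 6 members with the most counts over all libraries were LRRC75A-AS1, FGD5-AS1, NUTM2A-AS1, OIP5-AS1, WAC-AS1 and FAM83H-AS1, whose log2 fold changes ran between -4.69 in FAM83H-AS1 and 1.51 in FGD5-AS1. CPM is not corrected for length, so levels of different genes are not ranked against each other here. LRRC75A-AS1 (chromosome 17, 16438822 to 16478678, plus strand), a host gene of small nucleolar RNAs, had 133.6, 140.8 and 142.2 CPM in shCK5, against 215.9, 219.7 and 222 CPM in shControl (log2 fold change -0.66, SE 0.0290). Only 2065 of its 39857 bases are covered by no other gene. LRRC75A had 236 counts in shCK5 and 85 in shControl, and rose with a log2 fold change of 1.47 (adjusted p = 3.3e-05). NUTM2A-AS1 had 91.71 ± 1.62 CPM in shCK5 and 70.16 ± 0.928 CPM in shControl (0.39), with NUTM2A wholly inside it and at 0.

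OIP5-AS1, the human counterpart of the conserved noncoding RNA Cyrano, had 81.19 ± 1.73 CPM in shCK5 and 66.88 ± 0.691 CPM in shControl (log2 fold change 0.28, SE 0.0316). OIP5, which helps load the centromeric histone, had 17.16 ± 0.128 CPM in shCK5 and 15.53 ± 1.07 CPM in shControl. It passed the test with a log2 fold change of 0.14 (adjusted p = 0.02591), but not without shControl replicate 1 (0.13) or replicate 2 (0.11). WAC-AS1 had 71.71 ± 0.913 CPM in shCK5 and 33.98 ± 1.23 CPM in shControl (1.08). WAC, an adaptor in the ubiquitination of histone H2B, rose with a log2 fold change of 0.52 (adjusted p = 6.844e-14), less than its antisense RNA.

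With TMM scaling, some members of at least 5 CPM had nearly the same level in both groups. The least difference was then in GABPB1-AS1, with 34.31, 33.42 and 34.4 CPM in shCK5, against 36.31, 31.71 and 33.88 CPM in shControl (log2 fold change 0.0039, SE 0.0461). By column total alone, GABPB1-AS1 averaged 32.46 CPM in shCK5 and 35.59 CPM in shControl, and MAPKAPK5-AS1 7.055 CPM in shCK5 and 7.641 CPM in shControl. Which members lie nearest to equality thus depends on the scaling. The partner GABPB1, a subunit of the transcription factor GABP, rose with a log2 fold change of 0.35 (adjusted p = 4.105e-08). ST3GAL4-AS1 had 12.16 ± 0.1503 CPM in shCK5 and 11.99 ± 0.227 CPM in shControl, and ST3GAL4, a sialyltransferase, had 49.42 ± 1.09 CPM in shCK5 and 50.12 ± 1.20 CPM in shControl (log2 fold change -0.021, SE 0.0362, adjusted p = 0.6036). MAPKAPK5-AS1 had 7.398 ± 0.208 CPM in shCK5 and 7.294 ± 0.830 CPM in shControl, whereas the kinase gene MAPKAPK5 rose with a log2 fold change of 0.40 (adjusted p = 4.905e-09). GMDS-AS1 had 18.86 ± 1.57 CPM in shCK5 and 19.16 ± 0.367 CPM in shControl. GMDS, an enzyme of GDP-fucose synthesis that starts 56 bases away, fell with a log2 fold change of -1.05 (adjusted p = 3.226e-19), so close starts did not go with like fold changes in this pair.

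Whether each antisense RNA differed in the direction of its partner was compared over the pairs. Of the 191 members, 187 had a partner row. JHDM1D, KRTAP5, RPARP and ZNF295 named no row. A further 26 partners were at 0 in all libraries, and ATP6V0E2 and HORMAD2 fell below the filter on low counts. Among those at 0 were all 21 partners that lie wholly inside their antisense gene, such as PCBP1, SOX9 and LAMTOR5, and none of the 120 partners that start head to head with it. The antisense RNAs of these 3 were themselves measured: PCBP1-AS1 averaged 7.990 CPM in shCK5 and 21.90 CPM in shControl, SOX9-AS1 1.383 CPM in shCK5 and 3.145 CPM in shControl, and LAMTOR5-AS1 4.589 CPM in shCK5 and 8.156 CPM in shControl.

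Of the 159 partners tested, 71 rose, 74 fell and 14 did not pass the test. These calls made up 91.19% of the partners, against 82.7% of all genes (40.9% higher and 41.7% lower). The partners were taken through members chosen by level, so nothing is read from that difference. Scaled by library size alone, which moved the median of all genes from -0.02 to -0.156, 61 partners rose and 83 fell. The median log2 fold change of the partners was -0.03, near that of all genes. Member and partner had the same sign in 109 pairs, with 49 higher and 60 lower on both sides. Signs were opposite in 50 pairs, with the member higher and the partner lower in 23 and the reverse in 27. Across the 159 pairs, Pearson's r of the log2 fold changes was 0.62 and Spearman's rho 0.53. Member and partner come from the same 6 libraries, and pairs are not independent replicates, so these values describe the table and carry no p. The median absolute difference within a pair was 0.71 log2 units, and the partner had the larger fold change in 71 pairs.

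**Figure D4:**
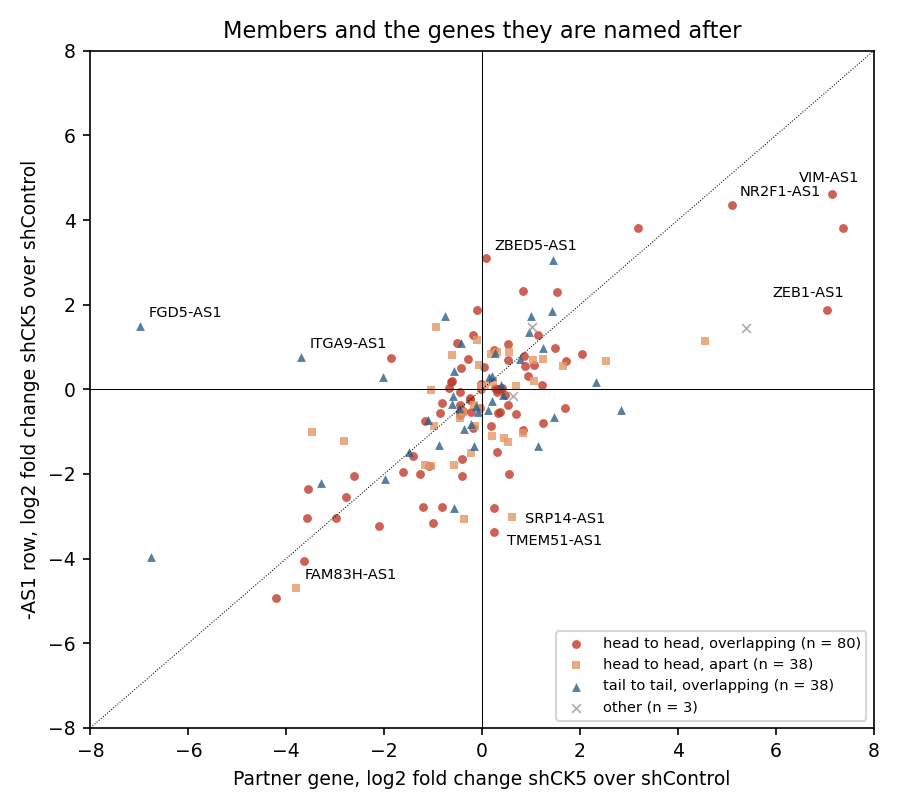
Log2 fold change of each -AS1 row (vertical) against that of its partner (horizontal), shCK5 over shControl, for the 159 pairs with a tested partner; colours and symbols give the arrangement of the pair in GENCODE v29, and the dotted line marks equal change. Most pairs have the same sign on both axes (109 of 159), with FGD5-AS1 and ITGA9-AS1 far out in the upper left; the fitted values of FGD5, FOXD3 and ZIM2, each with no count in 1 group, depend on the fit's prior count.

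The pairs were then divided by their arrangement. In 82 pairs the genes start head to head and overlap, with a median of 704 bases between the starts, and the signs were the same in 54 of the 80 tested pairs (r = 0.76, rho = 0.62). In 38 pairs they start head to head with no shared base, at a median of 144 bases, and the signs were the same in 27 (r = 0.51, rho = 0.44). In 41 pairs they overlap tail to tail, with starts a median of 75385 bases apart, and the signs were the same in 26 of 38 (r = 0.34, rho = 0.34). Partners rose in 37, 16 and 15 pairs of these arrangements and fell in 38, 17 and 19. In the same order, the median absolute difference within a pair was 0.711, 0.826 and 0.585 log2 units, so this measure ranks the arrangements otherwise than r. Among tested pairs whose RefSeq starts diverge, r was 0.58 in 41 pairs under 500 bases apart. It was 0.93 in 15 pairs at 500 bases or more. RefSeq and GENCODE v29 place some starts differently. The starts of the PRKAG2-AS1 pair lie 62183 bases apart in RefSeq and 83 in GENCODE v29, and those of the HHIP-AS1 pair 137 and 15336. This division thus depends on the annotation, and no relation of r to distance is read from it. The fitted values of FOXD3 (head to head, overlapping) and FGD5 (tail to tail, overlapping) depend on the fit's prior count. The differences between the arrangements were not tested.

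ZEB1-AS1 illustrates a pair with the same direction and unequal size. ZEB1-AS1 (ENSG00000237036.4, chromosome 10, 31206278 to 31320447, minus strand) had 4.031, 4.354 and 3.996 CPM in shCK5, against 1.181, 1.078 and 1.101 CPM in shControl (log2 fold change 1.88, SE 0.137). ZEB1, a repressor of epithelial genes, rose to 86.7 ± 0.790 CPM in shCK5, against 0.655 ± 0.128 CPM in shControl (7.05, SE 0.0695, adjusted p = 3.908e-30). Their RefSeq starts share the window printed above, yet the log2 fold change of the gene was over 3 times that of the antisense RNA. TMPO-AS1 had 5.562 ± 0.172 CPM in shCK5 and 3.446 ± 0.183 CPM in shControl (0.69), close to TMPO, a gene of nuclear lamina proteins, which rose by 0.53 (adjusted p = 1.068e-14). MCM3AP-AS1 had 2.771 ± 0.439 CPM in shCK5 and 4.903 ± 0.343 CPM in shControl (-0.83), and MCM3AP, which acts in messenger RNA export, fell with a log2 fold change of -0.22 (adjusted p = 9.65e-07).

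The pairs farthest apart with opposite signs were those of FGD5-AS1, ITGA9-AS1, SRP14-AS1 and TMEM51-AS1. FGD5-AS1 (ENSG00000225733.5, chromosome 3, 14920347 to 14948424, minus strand) had 135, 133.9 and 131.7 CPM in shCK5, against 45.21, 48.04 and 47.66 CPM in shControl (log2 fold change 1.51, SE 0.0322). FGD5, an exchange factor for the GTPase Cdc42 known from endothelial cells, had no count in shCK5 and 47 counts in shControl, at least 15.8-fold lower against the floor of 3 counts (adjusted p = 4.94e-06). The antisense RNA was thus abundant in counts while its partner had few or no counts in both groups.

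ITGA9-AS1 had 6.298, 6.505 and 6.014 CPM in shCK5, against 3.597, 3.761 and 3.665 CPM in shControl (log2 fold change 0.77, SE 0.0947). ITGA9, the integrin alpha 9 subunit, fell to 0.417 ± 0.167 CPM in shCK5, against 5.352 ± 0.494 CPM in shControl (-3.69, adjusted p = 1.207e-15). Their spans share 78083 bases tail to tail, none of which would enter either count under the counting inferred above. SRP14-AS1 had 1.222, 1.128 and 0.885 CPM in shCK5, against 9.047, 8.099 and 9.169 CPM in shControl (-3.02, SE 0.121). SRP14, a subunit of the signal recognition particle that starts 123 bases away with no shared base, rose to 154.4 ± 2.62 CPM in shCK5, against 101 ± 1.51 CPM in shControl (0.61, adjusted p = 3.162e-16). TMEM51 had 22.68 ± 1.17 CPM in shCK5 and 19.14 ± 1.17 CPM in shControl, and passed the test with a log2 fold change of 0.25 (adjusted p = 0.0002645) against -3.38 for TMEM51-AS1; scaled by library size alone, TMEM51 did not pass (0.11).

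MNX1-AS1 (chromosome 7, 157010805 to 157016426, plus strand), whose start window is printed above, had 3.552, 3.384 and 2.89 CPM in shCK5, against 1.154, 0.903 and 1.477 CPM in shControl (log2 fold change 1.48, SE 0.168). The homeobox gene MNX1 fell to 4.541 ± 0.0427 CPM in shCK5, against 8.775 ± 0.741 CPM in shControl (-0.95, adjusted p = 2.753e-10). In GENCODE v29 these genes share no base, and the groups overlapped for neither of them.

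At the threshold itself, PARD6G-AS1 had 2.098 ± 0.335 CPM in shCK5 and 1.708 ± 0.148 CPM in shControl, and its groups overlapped. PARD6G, a polarity protein of the PAR6 family, fell with a log2 fold change of -2.03 (adjusted p = 1.094e-07). LMCD1-AS1 had 2.122 ± 0.340 CPM in shCK5 and 1.613 ± 0.339 CPM in shControl, also with overlap, and LMCD1 was at 0 inside its span.

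Antisense and intronic RNAs under other names were not used by the rule and were tested beside the members. Of 287 rows ending in -AS, -AS2 to -AS5, -OT1, -OT2, -IT1 or -IT2, 45 had a count and 24 were tested. Of those, 9 rose, 9 fell and 6 did not pass (75% called, against 82.7% of all genes, 40.9% higher and 41.7% lower), with a median log2 fold change of 0.18, against -0.02 over all genes. With DESeq2, or with no filter on low counts, 14 fell, but both of these also fitted rows that the filter had left out. None of the 123 rows ending in -IT1 or -IT2, the names for RNAs from introns of a gene, had a count. RNAs from within the span of another gene would be at 0 under the counting inferred above. These rows therefore give no measure of expression. Among those that rose, MAGI2-AS3 had 5.215, 4.538 and 4.59 CPM in shCK5, against no count in shControl, at least 360.9-fold higher against the floor of 3 counts (adjusted p = 1.784e-17). WWC2-AS2 had 98 counts in shCK5 and none in shControl, at least 32.38-fold higher (adjusted p = 4.76e-08). ADAMTS9-AS2 and GAS6-AS2 rose with log2 fold changes of 3.23 and 2.86 (adjusted p = 7.786e-10 and 2.767e-17).

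The lowest of those that fell was HOXC-AS3. HOXC-AS3, from the HOXC cluster of homeobox genes, had 0.0756, 0.0262 and 0.0968 CPM in shCK5, against 1.772, 2.031 and 2.411 CPM in shControl (log2 fold change -4.94, adjusted p = 4.604e-13). HOXC13-AS fell by 4.76 log2 units (adjusted p = 1.555e-18), with 0.157 to 0.353 CPM in shCK5 and 6.87 to 7.034 CPM in shControl. WT1-AS, antisense to the Wilms tumour gene, had 0.328 to 0.590 CPM in shCK5 and 11.07 to 11.93 CPM in shControl (-4.66, adjusted p = 1.169e-20). EPB41L4A-AS2 and C21orf91-OT1 fell with log2 fold changes of -4.77 and -4.73. Among the 816 -AS1 rows under 2 CPM in both groups, which are also chosen by level, 369 had a count and 216 were tested, of which 60 were called higher and 94 lower in shCK5 (71.3%, against 82.7% of all genes), with a median of -0.40. Nothing is read from that count either.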

How the data were processed

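The deposited values are raw counts of reads per gene name in 1 table, deposited by the authors without any normalization. Per the submitters' processing notes, cutadapt, STAR, SAMtools, Cufflinks and the build GRCh38 were used, without versions. No source used here gives the counting program, the strand setting, the annotation release or how multi-mapped reads were treated. Between 63.1% and 65% of counts above 20 were even, so both mates of a fragment may have been counted. Chi-square per degree of freedom between libraries of a group was 4.04 to 8.1, so no library was treated as a duplicate.

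Counts were analysed in R 4.3.3 with edgeR 4.0.16. filterByExpr left 19567 genes, all 191 members among them. TMM factors were 0.9499 to 0.9587 in shCK5 and 1.043 to 1.056 in shControl. The quasi-likelihood test had no covariate and was two-sided, with Benjamini-Hochberg adjustment over all genes tested and a threshold of 0.05. It was run on simulated counts in which few genes were changed. Here 82.7% of all genes were called, so that run gives no assurance on the scaling or the calls. Log2 fold changes are shCK5 minus shControl. Errors of means are SDs over 3 libraries. The floor of 3 counts covers counting error only. Alternatives were DESeq2 1.42.0, other scalings, filters and thresholds, left-out libraries and the replicate block. Coordinates are 1-based, from GENCODE v29 on GRCh38, and promoters from RefSeq on GRCh38.p14.

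The members and lists were chosen with earlier results of these data known. Members named are the 10 highest and 10 lowest fold changes, the 6 with the most counts, the 4 with the least difference at 5 CPM or more, the 4 widest pairs of opposite sign, a short list of studied antisense RNAs and those at the threshold. Members on chromosomes X and Y were not analysed here.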

Additional observations from a re-analysis of the deposited data

How the results depend on the processing

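Over 27 named partners, 289 of 297 alternative values kept their direction and their side of the threshold; TMEM51 (0.11) and OIP5 (0.00846) were no longer called with library size alone, and OIP5 was not called without either of 2 shControl libraries. ZBED5 turned to -0.064 with library size alone, from 0.073, and ST3GAL4 lay between -0.0379 and 0.00554 with 1 library left out, the higher value without shCK5 replicate 2, against -0.021; neither was called with TMM scaling and all libraries. ST3GAL4 was called with library size alone (-0.157), and ZBED5 without shControl replicate 2 (0.0958). Among other antisense names, 14 fell with DESeq2 and 14 with no filter on low counts, against 9. Both alternatives also fitted rows that the filter had left out, so these counts are over different sets of rows. A threshold of 5 CPM left 99 members, and Pearson's r of the pairs was then 0.591. It was 0.57 in the 61 pairs with no shared exonic base. It was 0.64 in the 156 pairs whose partner had a count in both groups, an alternative chosen after seeing the data. The members' median log2 fold change was -0.224 where membership used TMM-scaled CPM and -0.465 with library size alone, which also moved the median of all genes to -0.156; no called member changed sign there. The cause of the other shifts was not tested. Without 1 library each, 187 to 192 rows were members, the median lay between -0.337 and -0.264, 70 to 71 partners rose and 73 to 75 fell, and 8 to 10 other antisense names rose and 9 to 11 fell. The labels do not say whether equal replicate numbers mark a shared culture or day. Over all genes tested, deviations of same-numbered libraries from their group means correlated at 5.75e-05, -0.0105 and -0.00452. These values cannot exclude a shared effect on some genes. With the replicate block, 71 partners rose and 74 fell, as without it, and 9 other antisense names rose and 9 fell. Levels near 0.1 CPM rest on few counts, and fold changes there are the least precise.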
